A study of Mus musculus with 12 samples.

Results

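The common gamma chain cytokine receptors were followed here as 8 genes, Il2rg, Il2rb, Il2ra, Il15ra, Il7r, Il21r, Il4ra and Il9r, measured by bulk RNA-seq in CD8 T cells of the OT-I mouse strain. The rule names the genes and uses no measured value, although the list was drawn up with earlier results of these data known. All 8 were matched by gene identifier among the 55401 genes of each count table. T cells of this strain carry 1 fixed receptor, which sees an ovalbumin peptide. The 12 libraries formed 4 groups of 3. Day 14 and day 4 cells, which the labels call exhausted, were CD44+ OT-I cells sorted from B78ChOVA melanomas of C57Bl6/J mice, 14 or 4 days after the cells had been transferred. Effector cells were stimulated with antigen for 5 days in culture. Naive cells were taken from tumour-free OT-I mice, out of their lymph nodes (day 0). All groups carry the OT-I genotype and the labels give no further treatment and no age. The effector group is a cell culture and not a tissue, and the tumour groups are the transferred cells that reached the tumour and passed the CD44 gate. The labels do not say whether the 3 libraries of a group came from separate animals or cultures, so p-values measure the spread between these libraries only, which may be technical.

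The common gamma chain, encoded by Il2rg, is the shared signalling subunit of the receptors for IL-2, IL-4, IL-7, IL-9, IL-15 and IL-21. Each cytokine also needs private chains: IL-2 and IL-15 share the beta chain encoded by Il2rb and differ in the alpha chains Il2ra and Il15ra, while IL-7, IL-21, IL-4 and IL-9 each use a chain of their own. The kinases JAK1 and JAK3 sit on these chains and pass the signal to STAT factors. In CD8 T cells IL-7 is known for the survival of naive and memory cells, IL-15 for memory and cytotoxic cells, IL-2 for clonal expansion, and IL-21 for cells that persist under chronic antigen.

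Libraries held 11937053 to 17094006 gene counts, and levels are given as CPM after TMM scaling of library totals. All 10 CD8 T cell markers examined (such as Cd3e and Cd8a) were present in every group. They summed to 4891 to 5166 CPM in day 14, 3855 to 4533 CPM in day 4, 7111 to 7541 CPM in effector and 5341 to 6045 CPM in naive samples. Melanoma markers moved with the tumour groups: their summed level over 8 genes was 498 to 1995 CPM in day 14 and 855 to 1285 CPM in day 4 libraries. Effector libraries had 41.3 to 44.0 CPM and naive libraries 26.8 to 34.0 CPM, with Tyr, Tyrp1 and Sox10 at 0 counts in effector libraries. Markers of macrophages and monocytes (14 genes) summed to 68.5 to 122 CPM in day 14 and 65.2 to 138 CPM in day 4 libraries. In effector libraries they summed to 6.18 to 10.1 CPM and in naive libraries 14.6 to 29.5 CPM. Of these 14, 6 were at 0 counts in effector and 2 in naive libraries. Those of dendritic cells and class II MHC (10 genes) summed to 186 to 225 CPM in day 14 and 144 to 190.2 CPM in day 4 libraries. The effector group had 9.98 to 24.5 CPM and the naive group 12.8 to 36.5 CPM, and 2 were at 0 counts in effector libraries. The part of these other cells in the receptor levels below was not tested. In bulk RNA, fewer cells that carry a transcript and less of it per cell cannot be told apart.

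The stretches before the start sites of Il7r, Il2ra and Il21r are shown because Il7r was lower and Il21r higher in tumour cells than in both other groups, and because Il2ra was close to absent in naive cells alone. They are RefSeq promoter sequences of build GRCm38.p6, 5′ to 3′ on the gene's strand, ending at the base before the start site. Any part inside an annotated exon was left out. For Il7r the RefSeq start site lies inside the annotated gene, whose 5′ end is at base 9530176. The Il7r stretch and its motif thus lie within the gene span, downstream of that end. Capitals mark a STAT motif (TTCNNNGAA) in Il7r and a forkhead motif (GTAAACA, here on the opposite strand) in Il21r. In Il2ra none of the 4 motifs searched was found, and the stretch is shown for comparison.
Il7r, chr15:9529877-9530040, minus strand: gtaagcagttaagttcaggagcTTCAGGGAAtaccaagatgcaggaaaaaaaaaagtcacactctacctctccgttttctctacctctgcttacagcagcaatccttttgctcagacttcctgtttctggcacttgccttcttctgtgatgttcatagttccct
Il2ra, chr2:11642542-11642791, plus strand: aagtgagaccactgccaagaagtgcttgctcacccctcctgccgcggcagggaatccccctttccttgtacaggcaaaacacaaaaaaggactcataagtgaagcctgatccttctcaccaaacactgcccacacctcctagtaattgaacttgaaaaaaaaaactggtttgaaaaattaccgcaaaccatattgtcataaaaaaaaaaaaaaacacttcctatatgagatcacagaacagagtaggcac
Il21r, chr7:125603179-125603428, plus strand: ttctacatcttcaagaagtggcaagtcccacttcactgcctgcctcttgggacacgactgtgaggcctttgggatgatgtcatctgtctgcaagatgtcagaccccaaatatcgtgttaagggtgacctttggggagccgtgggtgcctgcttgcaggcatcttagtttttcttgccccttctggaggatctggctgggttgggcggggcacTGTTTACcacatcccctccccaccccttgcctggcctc

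Motifs were searched on both strands of the RefSeq windows of 300 bases (250 before and 50 after the start site), of which 8 belonged to 7 of the receptor genes. Il2rb had no window, so its promoter was not searched. Among these 8 windows the STAT motif lay in that of Il7r alone, and 8.3% of all 32851 windows held it. It lay 142 bases before the RefSeq start site of Il7r, inside the annotated gene. The forkhead motif lay 38 bases before the Il21r start site and was held by 3.65% of all windows. An ETS motif (CCGGAAG, 8.86% of windows) lay 17 bases before the Il2rg start site and 104 bases before a start site of Il15ra, and an AP-1 motif (TGANTCA, 7.81% of windows) lay 30 bases before another start site of Il15ra. No motif overlapped another. A match describes these letters only and shows no binding.

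Across the 4 groups each of the 8 receptor genes differed (edgeR quasi-likelihood test, adjusted p between 4.57e-09 and 0.00115), and 74.8% of the 16426 genes tested did so too. Il9r passed the filter on low counts only through the tumour libraries, so its values there had to lie above those of both other groups. Its calls against those groups stay in the counts given here, but their direction was fixed by the filter. Calls rest on an adjusted p under 0.05, and the share of all genes called stands in brackets. In day 14 against naive cells 5 receptor genes rose and 2 fell (62.1% of all genes, 33.6% higher and 28.5% lower). In day 4 against naive cells 4 rose and 2 fell (62.2%, 33.4% higher and 28.8% lower). In effector against naive cells 4 rose and 1 fell (24.9%, 14.6% higher and 10.4% lower). Against effector cells, 3 rose and 4 fell at day 14 (61%, 32.6% higher and 28.4% lower), and 4 rose and 4 fell at day 4 (61.9%, 32.7% higher and 29.2% lower). Between day 14 and day 4 cells 2 rose and 1 fell (12.1%, 7.17% higher and 4.91% lower), and without day 14 replicate 2 the genes called in that contrast fell to 1283, against 1984 with all libraries. The contrasts share libraries, and every log2 fold change (log2FC) below is the first group over the second with its SE. The median log2 fold change of the 8 genes against naive cells was 1.29 at day 14, 0.79 at day 4 and 0.73 in effector cells. The medians of all genes were 0.04, 0.03 and 0.01. Those of the 8 genes include Il9r, whose direction at both tumour days was fixed by the filter. At day 4 the median lay between Il15ra (log2FC -0.03) and Il21r (log2FC 1.62), so its value rested on counting Il9r.

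**Figure D1:**
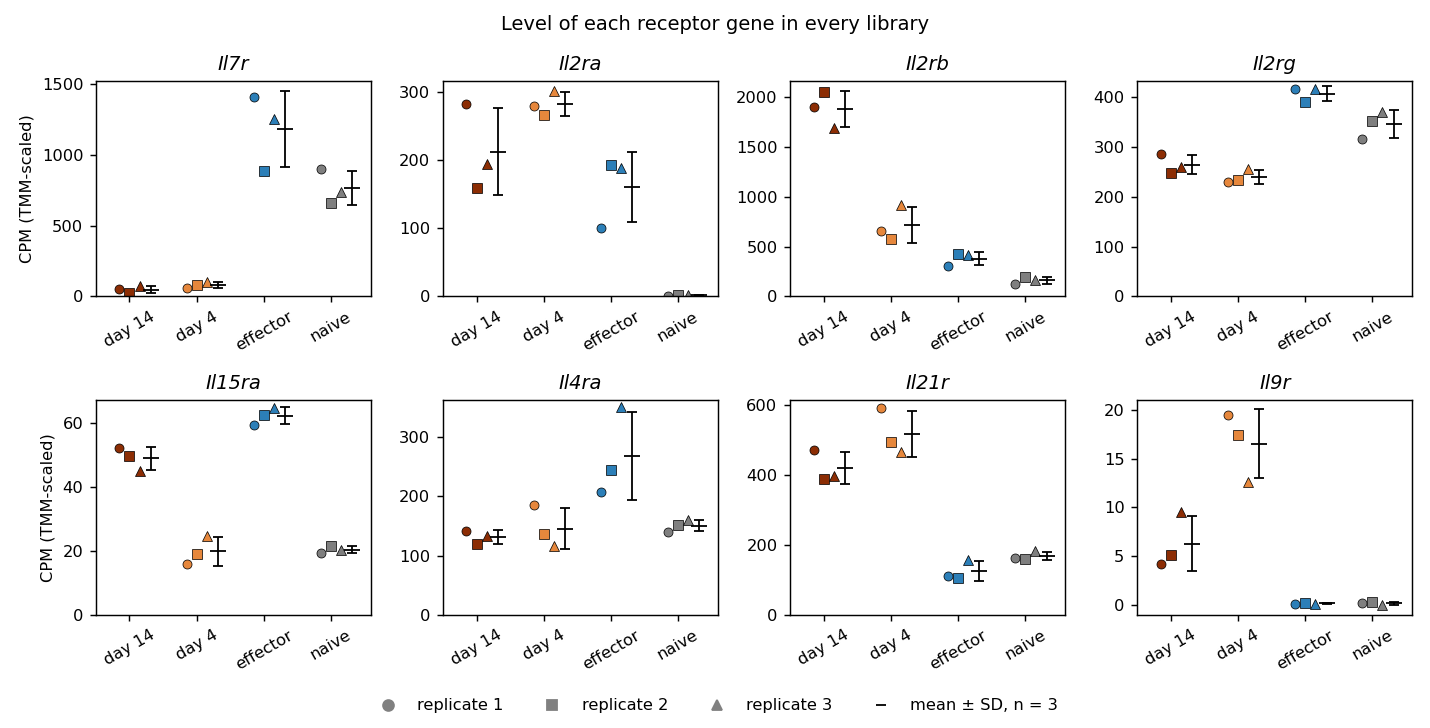
CPM of each receptor gene (y axis, linear, TMM-scaled) in every library of the day 14, day 4, effector and naive groups, with the symbol giving the replicate number and the bar the mean ± SD of 3 libraries. Il7r lies between 22.8 and 104 CPM in the 6 tumour libraries. Il2rb has a step between each pair of neighbouring groups and lies between 1692 and 2055 CPM at day 14.

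Il2rg (ENSMUSG00000031304.18, GRCm38 chromosome X, 101264378 to 101268255, minus strand), the chain that all of these receptors share, was the steadiest of the genes and lower in tumour cells. It had 286, 248 and 259 CPM in day 14 and 229, 234 and 256 CPM in day 4 libraries. Levels were 416, 389.6 and 417 CPM in effector libraries and 316, 353 and 370.1 CPM in naive ones. The tumour libraries did not overlap with the others, whereas day 14 and day 4 libraries overlapped (log2FC 0.14, SE 0.09, edgeR adjusted p = 0.346). Il2rg fell at day 14 (log2FC -0.39, SE 0.09, edgeR adjusted p = 0.000849) and at day 4 (log2FC -0.53, SE 0.09, edgeR adjusted p = 5.04e-05) against naive cells. Against effector cells it fell at day 14 (log2FC -0.62, SE 0.09, edgeR adjusted p = 1.00e-05) and at day 4, where the fold of 1.70 was its largest (log2FC -0.76, SE 0.09, edgeR adjusted p = 9.67e-07). Part of the CD8 T cell markers fell in tumour cells too. Of these 10, 6 fell at day 4 against naive cells (28.8% of all genes) and 9 at day 4 against effector cells (29.2%). Their median log2 fold changes there were -0.33 and -0.69. At day 14 against naive cells 3 fell (28.5% of all genes) and 1 rose (33.6%), with a median of -0.11. Against effector cells 6 fell at day 14 (28.4% of all genes, median -0.37). Their part in the Il2rg values was not tested. The higher Il2rg level in effector than in naive cells was not called (log2FC 0.23, SE 0.09, edgeR adjusted p = 0.0552), although those groups did not overlap. It was called there without naive replicate 3 (log2FC 0.29, edgeR adjusted p = 0.0441) and by limma voom (adjusted p = 0.0413). Of its 2387 exon bases, 728 are shared with the read-through gene Gm20489, where reads are ambiguous. Gm20489 itself had 0 to 3 counts in day 14, 0 to 1 in day 4, 0 to 8 in effector and 2 to 6 in naive libraries.

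Il2rb (ENSMUSG00000068227.9, chromosome 15, 78479256 to 78495271, minus strand), the signalling chain for IL-2 and IL-15, was the gene with the clearest steps among the groups. It had 1897, 2055 and 1692 CPM in day 14 and 656, 572 and 914 CPM in day 4 libraries. Effector libraries had 305, 421 and 412 CPM and naive libraries 119.8, 197 and 161 CPM. The lowest library of each group stood above the highest of the next, in the order day 14, day 4, effector, naive, and all 6 contrasts were called. Day 14 cells had 11.8-fold more than naive cells (log2FC 3.56, SE 0.23, edgeR adjusted p = 2.29e-07) and 4.96-fold more than effector cells (log2FC 2.31, SE 0.22, edgeR adjusted p = 5.09e-06). Day 4 cells had 4.48-fold more than naive cells (log2FC 2.16, SE 0.22, edgeR adjusted p = 8.05e-06) and 1.88-fold more than effector cells (log2FC 0.91, SE 0.21, edgeR adjusted p = 0.00325). Between tumour days it was 2.63-fold higher at day 14 than at day 4 (log2FC 1.40, SE 0.21, edgeR adjusted p = 0.00169), and it was 2.38-fold higher in effector than in naive cells (log2FC 1.25, SE 0.22, edgeR adjusted p = 0.00181). NK cells also carry Il2rb, and of the NK cell markers Ncr1 had 0 to 0.0587 CPM in day 14 libraries. Ncr1 was at 0 counts in day 4, effector and naive libraries. Klra8 had 0 CPM in day 14, effector and naive libraries and averaged 0.0400 CPM in day 4 ones. Klre1, another NK cell marker, averaged 4.96 ± 1.74 CPM in day 14 and 4.90 ± 1.31 CPM in day 4 samples. Its means were 1.29 ± 0.717 CPM in effector and 0.0775 ± 0.0765 CPM in naive samples (SD, n = 3 each). Tyrobp had its highest mean in naive libraries, with 2.67, 4.08, 2.56 and 5.49 CPM in day 14, day 4, effector and naive libraries. In that order Klrb1c averaged 0.143, 0.447, 0.0258 and 0.391 CPM. The 6 NK cell markers summed to 138 to 184 CPM in day 14 and 120.4 to 179 CPM in day 4 libraries. In effector libraries they summed to 15 to 27.9 CPM and in naive libraries to 39.3 to 68.5 CPM. Most of the level came from Eomes, a transcription factor that activated CD8 T cells also express. The part of NK cells in Il2rb was not tested.

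Il2ra (ENSMUSG00000026770.5, chromosome 2, 11642807 to 11693193, plus strand), which encodes CD25, the chain that gives IL-2 high-affinity binding, was close to absent in naive cells and present in each of the other groups. It had 283, 159 and 194 CPM in day 14 and 279.5, 266 and 301 CPM in day 4 libraries. The effector group had 101, 193 and 187 CPM and the naive group 0.959, 1.75 and 1.68 CPM, the naive values resting on 13, 22 and 22 counts. No naive library came near the others, and effector replicate 1 was the lowest outside the naive group. Against naive cells it rose at day 14 (log2FC 7.18, SE 0.39, edgeR adjusted p = 1.31e-07), at day 4 (log2FC 7.59, SE 0.40, edgeR adjusted p = 8.65e-08) and in effector cells (log2FC 6.77, SE 0.39, edgeR adjusted p = 2.20e-06). Day 4 cells were 1.76-fold above effector cells (log2FC 0.81, SE 0.27, edgeR adjusted p = 0.0222), a call lost without day 4 replicate 3 (adjusted p = 0.0643) and with no filter on low counts (adjusted p = 0.0514). Day 14 cells overlapped with effector cells (log2FC 0.40, SE 0.26, edgeR adjusted p = 0.214) and with day 4 cells (log2FC -0.41, SE 0.26, edgeR adjusted p = 0.396), and neither difference was called. Regulatory T cells also carry Il2ra. Their factor Foxp3 averaged 3.71 ± 1.27 CPM in day 14 and 2.0 ± 0.767 CPM in day 4 libraries. Levels were 5.18 ± 1.95 CPM in effector libraries and 1.95 ± 0.409 CPM in naive ones (SD, n = 3 each). The 6 CD4 and Treg markers summed to 309 to 362 CPM in day 14 and 741 to 834 CPM in day 4 libraries. Effector libraries had 184 to 340.4 CPM and naive libraries 67.7 to 85.5 CPM, with none at 0 counts. Most of it came from Ikzf2, averaging 298 CPM at day 14, 742 at day 4, 194 in effector and 55.4 in naive libraries. Cd4 averaged 3.59, 2.69, 0.519 and 0.388 CPM in the same order. Against naive cells Cd4, Ikzf2, Ikzf4 and Zbtb7b rose and Cd40lg fell at both tumour days, while Foxp3 was not called there. In effector against naive cells Ikzf2, Ikzf4, Zbtb7b and Foxp3 rose (for Foxp3 log2FC 1.41, SE 0.42, edgeR adjusted p = 0.0226). Cd4 and Cd40lg were not called in that contrast. The shares of all genes called were 62.1% at day 14, 62.2% at day 4 and 24.9% in effector cells. The part of such cells in Il2ra was not tested.

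Il15ra (ENSMUSG00000023206.16, chromosome 2, 11705290 to 11734317, plus strand), the chain that binds IL-15 and presents it to neighbouring cells, separated the tumour days. It had 52.1, 49.8 and 45.1 CPM in day 14 and 15.8, 19.2 and 24.6 CPM in day 4 libraries. In effector libraries it had 59.5, 62.4 and 64.8 CPM and in naive libraries 19.3, 21.5 and 20.2 CPM. Day 14 and effector libraries formed the high end and day 4 and naive libraries the low end, and day 4 overlapped with naive libraries. It rose 2.46-fold at day 14 over day 4 (log2FC 1.30, SE 0.14, edgeR adjusted p = 1.99e-05), 2.41-fold at day 14 over naive cells (log2FC 1.27, SE 0.14, edgeR adjusted p = 9.77e-07) and 3.06-fold in effector over naive cells (log2FC 1.61, SE 0.14, edgeR adjusted p = 9.18e-07). Day 4 cells were 3.13-fold below effector cells (log2FC -1.65, SE 0.14, edgeR adjusted p = 4.43e-08). Against naive cells the day 4 value was not called (log2FC -0.03, SE 0.14, edgeR adjusted p = 0.864). The lower level at day 14 than in effector cells was called (log2FC -0.35, SE 0.14, edgeR adjusted p = 0.0372), but not without any 1 of the 3 day 14 or 3 effector libraries or without day 4 replicate 2 (adjusted p between 0.0679 and 0.149), nor with other scalings, other filters or DESeq2 (adjusted p between 0.0520 and 0.0832).

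Il7r (ENSMUSG00000003882.5, chromosome 15, 9505788 to 9530176, minus strand), the alpha chain for IL-7 that marks naive and memory cells, was low in tumour cells and high in both naive and effector cells. It had 52.1, 22.8 and 69.8 CPM in day 14 and 57.7, 82.3 and 104 CPM in day 4 libraries. In effector libraries it had 1408, 883 and 1249 CPM and in naive libraries 897, 661 and 734 CPM. The 6 tumour libraries all lay below the 6 others, while day 14 overlapped with day 4 and effector with naive libraries. Il7r fell 15.8-fold at day 14 (log2FC -3.99, SE 0.43, edgeR adjusted p = 4.83e-05) and 9.37-fold at day 4 (log2FC -3.23, SE 0.42, edgeR adjusted p = 0.000149) against naive cells. Against effector cells the falls were 24.5-fold at day 14 (log2FC -4.61, SE 0.44, edgeR adjusted p = 2.29e-05) and 14.5-fold at day 4 (log2FC -3.86, SE 0.43, edgeR adjusted p = 5.44e-05). Day 14 cells were not called against day 4 cells (log2FC -0.76, SE 0.39, edgeR adjusted p = 0.292). Effector cells were not called against naive cells by edgeR (log2FC 0.63, SE 0.38, adjusted p = 0.281), while limma voom put that value just past the threshold (log2FC 0.62, adjusted p = 0.0498).

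Il21r (ENSMUSG00000030745.9, chromosome 7, 125603429 to 125633570, plus strand), the private chain for IL-21, was higher in tumour cells than in both other groups. It had 471, 389 and 397 CPM in day 14 and 589.9, 493 and 465 CPM in day 4 libraries. Levels were 111, 104 and 156 CPM in effector libraries and 162, 161 and 182 CPM in naive ones. The tumour libraries stood apart from the rest, and the tumour days overlapped by 1 library each. The effector libraries all lay below the naive ones. Il21r rose against naive cells at day 14 (log2FC 1.32, SE 0.14, edgeR adjusted p = 1.27e-06) and at day 4 (log2FC 1.62, SE 0.14, edgeR adjusted p = 1.47e-07). Against effector cells it was 3.38-fold higher at day 14 (log2FC 1.76, SE 0.14, edgeR adjusted p = 6.99e-08) and 4.17-fold higher at day 4 (log2FC 2.06, SE 0.14, edgeR adjusted p = 1.21e-08). Day 14 was not called against day 4 (log2FC -0.30, SE 0.14, edgeR adjusted p = 0.195), except with no filter on low counts (adjusted p = 0.0181). The lower level in effector than in naive cells was called (log2FC -0.44, SE 0.14, edgeR adjusted p = 0.0316) but not without effector replicate 1 or 2 or without naive replicate 1, 2 or 3 (adjusted p between 0.0567 and 0.126).

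Il4ra (ENSMUSG00000030748.9, chromosome 7, 125552120 to 125579474, plus strand), the chain that binds IL-4 and, with another partner, IL-13, was raised in effector cells. It had 142, 119.8 and 133 CPM in day 14 and 185, 136 and 116 CPM in day 4 libraries. Effector libraries had 208, 245 and 351 CPM and naive libraries 140.4, 152 and 159.7 CPM. Effector libraries lay above the rest, and the other groups overlapped with each other. It rose 1.78-fold in effector over naive cells (log2FC 0.83, SE 0.19, edgeR adjusted p = 0.00862) and was lower than in effector cells at day 14 (log2FC -1.02, SE 0.19, edgeR adjusted p = 0.000665) and at day 4 (log2FC -0.88, SE 0.19, edgeR adjusted p = 0.00183). Against naive cells neither day 14 (log2FC -0.19, SE 0.19, edgeR adjusted p = 0.406) nor day 4 (log2FC -0.05, SE 0.19, edgeR adjusted p = 0.841) was called, and neither was day 14 against day 4 (log2FC -0.14, SE 0.19, edgeR adjusted p = 0.737). Il4ra shares 571 exon bases with the antisense gene Gm44876, which had 14 to 35 counts in day 14, 26 to 53 in day 4, 5 to 42 in effector and 16 to 39 in naive libraries.

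Il9r (ENSMUSG00000020279.10, chromosome 11, 32187541 to 32200279, minus strand), the private chain for IL-9, had the lowest levels of the 8 and appeared in tumour cells. It had 4.22, 5.11 and 9.49 CPM in day 14 and 19.5, 17.5 and 12.6 CPM in day 4 libraries. In effector libraries it had 0.144, 0.258 and 0.155 CPM and in naive libraries 0.221, 0.318 and 0 CPM. Effector and naive groups held 7 counts each, against 308 at day 14 and 746 at day 4, and 3 counts in a library correspond to 0.176 to 0.251 CPM. By summed counts the level was 35.4-fold (95% interval 17.0 to 88.8) that of naive cells at day 14 and 92.2-fold (44.5 to 230.2) at day 4, intervals that cover counting error only. Il9r passed the filter only through tumour libraries, so its values against naive and effector cells are given as a description. Fitted log2 fold changes against naive cells were 5.07 (SE 0.54) at day 14 and 6.46 (SE 0.53) at day 4. Without naive replicate 2 they were 5.71 and 7.11. Against effector cells they were 5.04 (SE 0.54) at day 14 and 6.43 (SE 0.53) at day 4. It fell 2.63-fold at day 14 against day 4 (log2FC -1.39, SE 0.35, edgeR adjusted p = 0.0148), a call lost when replicate 1 or 2 of either tumour day was left out (adjusted p between 0.0590 and 0.0764). Effector and naive cells were not called against each other (log2FC 0.03, SE 0.85, edgeR adjusted p = 1). Mast cells and type 2 innate lymphoid cells also carry Il9r. Of 8 markers for them, Mcpt4, Tpsb2 and Fcer1a had 0 counts in all 12 libraries, while Il1rl1, which encodes the IL-33 receptor, averaged 23.7 ± 21.3 CPM in day 14 and 79.6 ± 14.7 CPM in day 4 libraries. The effector group had 0.272 ± 0.236 CPM and the naive group 0.126 ± 0.116 CPM (SD, n = 3 each). The list summed to 54.1 to 82.6 CPM in day 14 and 111 to 133 CPM in day 4 libraries. The sum was 26.0 to 77.7 CPM in effector libraries and 3.59 to 7.67 CPM in naive ones. Kit averaged 21.5 CPM in day 14, 19.7 in day 4, 19.3 in effector and 0.819 in naive libraries. In that order Hpgds averaged 11.5, 11.5, 26.6 and 3.91 CPM, and Areg 8.63, 10.5, 0.0286 and 0.0255 CPM. Cpa3 was lower in the tumour groups, at 0, 0.113, 0.977 and 0.863 CPM. The part of such cells in Il9r was not tested.

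**Figure D2:**
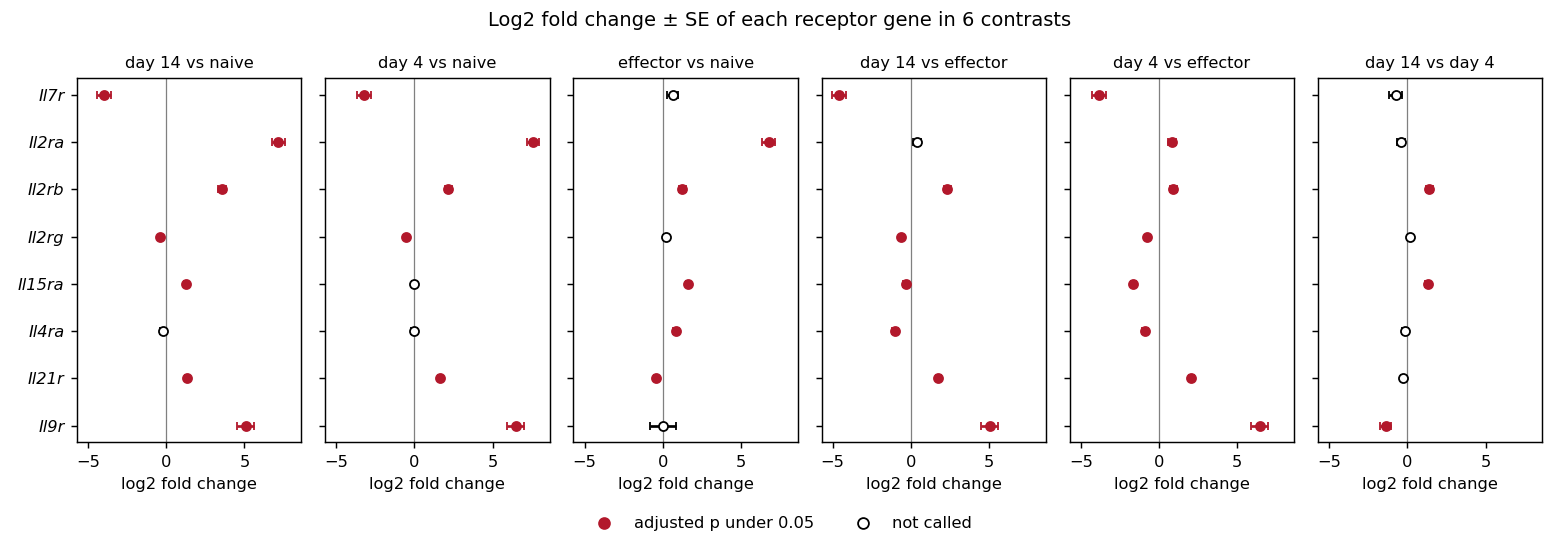
Log2 fold change of each receptor gene (x axis, first group over second, bars are SE, 12 libraries in 1 fit) in 6 contrasts, with filled points called at an edgeR adjusted p under 0.05. Il2rb lies to the right of 0 in all 6 contrasts, from 0.91 to 3.56, and Il7r lies between -4.61 and -3.23 in the 4 contrasts of tumour cells with naive or effector cells.

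To compare levels between genes, CPM were divided by exon length in kilobases. By mean per kilobase Il2rb led at day 14 (439 ± 42.4) and at day 4 (167 ± 41.6), while Il7r led in effector (253 ± 57.8) and naive (164 ± 25.9) libraries (CPM per kilobase, SD, n = 3 each). In day 4 libraries Il21r had 177, 148 and 140 CPM per kilobase against 153, 134 and 213 for Il2rb. Il21r was thus above Il2rb in day 4 replicates 1 and 2, and the lead of Il2rb there rested on replicate 3. As a share of the summed level per kilobase of the 8 genes, Il2rb made up 57.9 ± 4.09% in day 14 and 31.7 ± 5.38% in day 4 libraries. Effector libraries had 14.0 ± 3.10% and naive libraries 8.74 ± 2.31%. The share of Il7r was 1.39 ± 0.741% in day 14 and 3.35 ± 0.872% in day 4 libraries. In effector libraries it was 39.6 ± 6.81% and in naive libraries 38.4 ± 5.64%. Il21r held 16.6 ± 1.24% in day 14 and 29.9 ± 4.57% in day 4 libraries. The effector group had 5.82 ± 0.869% and the naive group 11.9 ± 0.607%. The share of Il2rg was 14.6 ± 0.930% in day 14 and 19.3 ± 1.24% in day 4 libraries. It was 26.9 ± 1.68% in effector libraries and 34.0 ± 2.74% in naive ones. With the bases shared with other genes taken off the lengths, an alternative added after seeing the data, the share of Il2rg was 19.7 ± 1.18% in day 14 and 25.5 ± 1.51% in day 4 libraries. Effector libraries had 34.4 ± 1.94% and naive libraries 42.3 ± 2.97%. Il2rg then ranked above Il21r at day 14 and above Il7r in naive libraries. The summed level of the 8 genes was 757 ± 48.1 in day 14 and 521 ± 44.3 in day 4 libraries. It came to 636 ± 61.1 in effector libraries and 427 ± 11.1 in naive ones (CPM per kilobase, SD, n = 3 each).

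**Figure D3:**
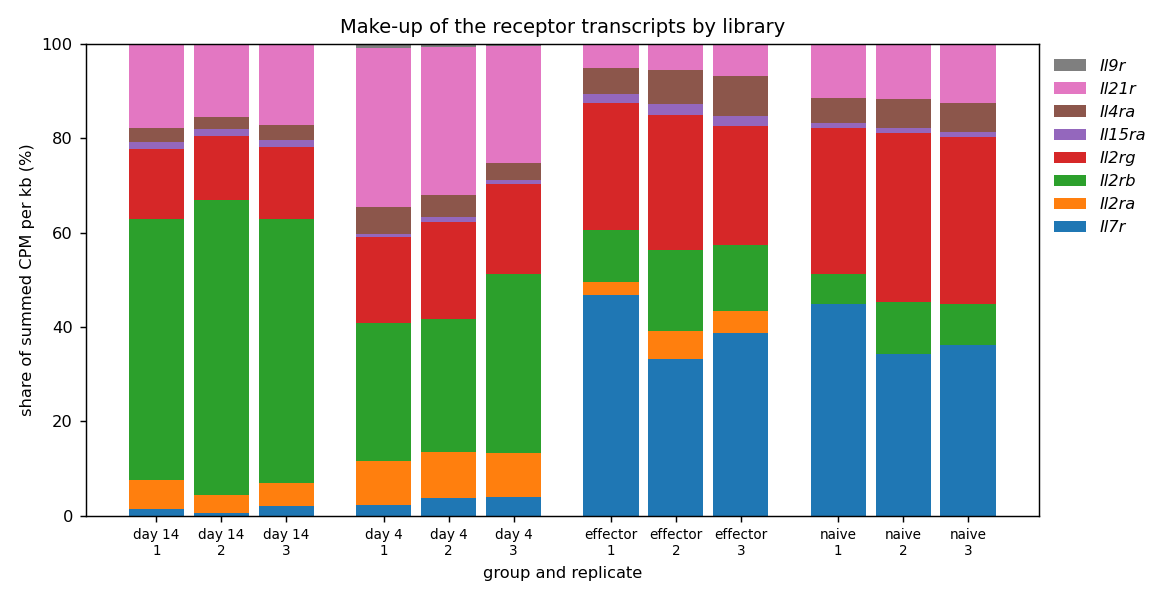
Share of each receptor gene in the summed CPM per exon kilobase of the 8 genes (y axis, percent), with 1 stacked bar per library for the day 14, day 4, effector and naive groups. Il2rb fills 55.2% to 62.6% of the day 14 bars and Il7r 33.2% to 46.7% of the effector bars, with Il2rg understated in every bar because part of its exons is shared with another gene.

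The ratio of Il2rb to Il7r per kilobase within a library put both opposite trends on 1 scale. It was 39.6, 97.9 and 26.4 in day 14 and 12.4, 7.57 and 9.53 in day 4 libraries. Effector libraries stood at 0.236, 0.518 and 0.358 and naive libraries at 0.145, 0.325 and 0.238. Tumour libraries stood above 1 and the others below it, and effector and naive libraries overlapped. The ratio of Il2rb to Il2rg, the pair that signals for IL-2 and IL-15, was 3.64 to 4.61 in day 14 and 1.36 to 1.99 in day 4 libraries. It was 0.409 to 0.601 in effector libraries and 0.211 to 0.312 in naive ones, and no group overlapped with another. The ratio of Il4ra to Il21r was 0.167 to 0.186 in day 14 and 0.138 to 0.173 in day 4 libraries. Effector libraries stood at 1.03 to 1.30 and naive libraries at 0.480 to 0.523. These ratios are descriptions and were not tested.

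Among the 6 gamma chain cytokines themselves 3 could be tested, and the levels were low. These 3 (Il2, Il15 and Il21) passed the filter on low counts through tumour libraries only, so their values against naive and effector cells are given as a description. Il21, which encodes the ligand of Il21r and passed through day 14 libraries only, had 273 counts at day 14, 7 at day 4 and 0 in effector and in naive libraries. Its level of 5.58 ± 1.47 CPM at day 14 (SD, n = 3) was at least 73.2-fold higher than in naive cells, computed against 3 counts over the naive group. Against day 4 cells, at 0.158 ± 0.104 CPM, the ratio of summed counts at day 14 was 36.3 (95% interval 17.4 to 91.0). This interval and that of Il15 below cover counting error only. Because Il21 passed through day 14 libraries only, its direction against day 4 cells was fixed too and is given as a description. The fitted log2 fold change of 5.09 in that contrast moved to 5.69 without day 4 replicate 3. Il15 had 73 counts at day 14 and 4 in naive libraries (ratio 14.7, 95% interval 5.49 to 55.3). Its fitted log2 fold change of 3.78 moved to 4.99 without naive replicate 1. In effector against naive cells edgeR called 0 of the 3 tested cytokines (24.9% of all genes), with 0 at an unadjusted p under 0.05, 0 by DESeq2 and 0 by limma voom. Crlf2, the partner of Il7r in the TSLP receptor and the 1 tested gene of the 4 partner genes listed, rose at day 14 over naive cells (log2FC 1.64, SE 0.38, edgeR adjusted p = 0.00138).

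Of the 7 kinases and STAT factors, 2 rose and 2 fell at day 14 against naive cells. The shares of all genes called were 62.1% there, 24.9% in effector against naive and 12.1% in day 14 against day 4 cells. Stat3, a main mediator of IL-21 signals, had 1195 ± 120 CPM in day 14 and 939.8 ± 130.4 CPM in day 4 libraries. In effector libraries it had 195 ± 17.8 CPM and in naive libraries 196 ± 36.4 CPM (SD, n = 3 each). It rose at day 14 over naive cells (log2FC 2.61, SE 0.14, edgeR adjusted p = 4.56e-10). Stat5a, a mediator of IL-2, IL-7 and IL-15 signals, rose as well (log2FC 1.24, SE 0.12, edgeR adjusted p = 1.91e-07) and was lower at day 14 than at day 4 (log2FC -0.59, SE 0.12, edgeR adjusted p = 0.00278). The kinase Jak1 fell (log2FC -0.94, SE 0.08, edgeR adjusted p = 7.04e-08), as did Stat6, the mediator of IL-4 signals (log2FC -0.64, SE 0.10, edgeR adjusted p = 2.59e-05). In effector against naive cells 3 rose, namely Jak3, Stat5b and Jak1, with log2 fold changes of 0.55, 0.40 and 0.36. None of these 3 was called with total counts as scaling, which shifted the median of all genes to -0.10 in that contrast (edgeR adjusted p = 0.0591 for Jak3, 0.0823 for Stat5b and 0.0730 for Jak1). Jak3 was also lost in a fit of effector and naive libraries alone (edgeR adjusted p = 0.0725) and without effector replicate 3 or naive replicate 1 (edgeR adjusted p = 0.0961 and 0.0564). Stat5b was lost without effector replicate 1 (edgeR adjusted p = 0.0722). In day 14 against day 4 cells 2 fell, Stat5a and Stat6. The call for Stat6 (log2FC -0.33, SE 0.10, edgeR adjusted p = 0.0306) was lost when replicate 1 or 2 of either tumour day was left out (edgeR adjusted p between 0.0655 and 0.130).

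Of 10 feedback inhibitors of these receptors, 4 rose and 2 fell at day 14 against naive cells. Among all genes 62.1% were called there, 24.9% in effector against naive and 12.1% in day 14 against day 4 cells. Cish, a STAT5 target that restrains receptor signals, had 71.5 ± 21.7 CPM in day 14 and 38.9 ± 6.43 CPM in day 4 libraries. The effector group had 5.95 ± 2.73 CPM and the naive group 2.26 ± 0.866 CPM (SD, n = 3 each). Cish rose at day 14 over naive cells (log2FC 4.97, SE 0.38, edgeR adjusted p = 3.58e-07). Socs2, another STAT5 target that no naive library carried past the filter, had 294 counts at day 14 and 3 in naive libraries. The ratio was 78.8 (95% interval 26.7 to 384, which covers counting error only). Socs2 stays among the 4 that rose at day 14, but its direction there was fixed by the filter. Its fitted log2 fold change of 6.17 moved to 7.01 without naive replicate 1. Smaller rises were those of Socs7 (log2FC 0.71, SE 0.12, edgeR adjusted p = 6.67e-05) and of the phosphatase Ptpn2 (log2FC 0.62, SE 0.10, edgeR adjusted p = 6.93e-05). In effector against naive cells 4 rose and 1 fell. There Socs1 rose (log2FC 1.29, SE 0.28, edgeR adjusted p = 0.00313) and the phosphatase Ptpn6 fell (log2FC -1.08, SE 0.15, edgeR adjusted p = 0.000141). Cish rose there (log2FC 1.38, SE 0.40, edgeR adjusted p = 0.0248), but not without effector replicate 2 or 3 or naive replicate 2 or 3 (edgeR adjusted p between 0.0578 and 0.0829), with a replicate block (edgeR adjusted p = 0.0513) or by limma voom (adjusted p = 0.146). Socs2 rose there too, on 27 against 3 counts (log2FC 3.12, SE 1.02, edgeR adjusted p = 0.0339). That call was lost without effector replicate 2 or naive replicate 1, 2 or 3 (edgeR adjusted p between 0.0544 and 0.342) and by limma voom (adjusted p = 0.19). In day 14 against day 4 cells 2 fell, Socs5 (log2FC -0.80, SE 0.17, edgeR adjusted p = 0.00473) and Ptpn6 (log2FC -0.53, SE 0.15, edgeR adjusted p = 0.0319). The call for Ptpn6 was lost without any 1 of the tumour libraries except day 14 replicate 3 (edgeR adjusted p between 0.0690 and 0.116).

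Among 10 survival and growth genes that gamma chain cytokines are known to act on, 4 rose and 6 fell at day 14 against naive cells. Of all genes, 62.1% were called there, 24.9% in effector against naive and 12.1% in day 14 against day 4 cells. The pro-apoptotic Pmaip1 and Bcl2l11 both rose, while survival factors moved in either direction. The rises were those of Pmaip1, which encodes the pro-apoptotic NOXA (log2FC 3.89, SE 0.18, edgeR adjusted p = 4.07e-11), of Bcl2l1, which encodes the survival factor BCL-XL (log2FC 3.0, SE 0.27, edgeR adjusted p = 1.28e-07), of the kinase Pim1 (log2FC 1.90, SE 0.21, edgeR adjusted p = 6.23e-06) and of Bcl2l11. The kinase Pim2 fell (log2FC -2.84, SE 0.31, edgeR adjusted p = 2.40e-05), with Bcl2, Mcl1, Ccnd2, Ccnd3 and Myc. In effector against naive cells 3 fell: the survival factor Bcl2 (log2FC -1.96, SE 0.16, edgeR adjusted p = 1.39e-06) and the cyclins Ccnd2 and Ccnd3. The call for Ccnd2 (log2FC -0.78) was lost without effector replicate 1 or 2 or naive replicate 2 or 3 (edgeR adjusted p between 0.0789 and 0.0989) and without the filter on counts (edgeR adjusted p = 0.0855). That for Ccnd3 (log2FC -0.52) was lost without naive replicate 2 (edgeR adjusted p = 0.0955). In day 14 against day 4 cells 1 rose, Pmaip1 (log2FC 1.25, SE 0.16, edgeR adjusted p = 7.11e-05), and 1 fell, Myc, which encodes a transcription factor of cell growth (log2FC -0.70, SE 0.20, edgeR adjusted p = 0.0379). Myc was not called there without day 14 replicate 1 or 2, day 4 replicate 2 or 3 or naive replicate 3 (edgeR adjusted p between 0.0512 and 0.133).

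Of 8 genes known to regulate Il7r transcription, 3 rose and 4 fell at day 14 against naive cells. The shares of all genes called were 62.1% there, 24.9% in effector against naive and 12.1% in day 14 against day 4 cells. Foxo1, an activator of Il7r in T cells, had 177 ± 14.5 CPM in day 14 and 162 ± 11.7 CPM in day 4 libraries. Levels were 383 ± 7.61 CPM in effector libraries and 419 ± 37.3 CPM in naive ones (SD, n = 3 each). Foxo1 fell at day 14 against naive cells (log2FC -1.25, SE 0.09, edgeR adjusted p = 6.40e-09). Foxo3 fell too (log2FC -1.46, SE 0.13, edgeR adjusted p = 5.36e-08), and so did Foxp1, a repressor that competes with FOXO1 at Il7r (log2FC -2.66, SE 0.10, edgeR adjusted p = 4.74e-12). Runx3 was among those that rose (log2FC 0.61, SE 0.14, edgeR adjusted p = 0.00157). In effector against naive cells 2 rose and 1 fell: the repressor Gfi1 (log2FC 1.77, SE 0.16, edgeR adjusted p = 9.07e-07) and the activator Gabpa (log2FC 0.35, SE 0.08, edgeR adjusted p = 0.00363) were higher, and Runx1 (log2FC -0.69, SE 0.16, edgeR adjusted p = 0.00547) was lower. In day 14 against day 4 cells 2 rose, Runx3 (log2FC 1.17, SE 0.14, edgeR adjusted p = 8.88e-05) and Ets1 (log2FC 1.01, SE 0.07, edgeR adjusted p = 4.57e-07), and 2 fell, Foxp1 (log2FC -1.59, SE 0.10, edgeR adjusted p = 1.13e-07) and Gfi1 (log2FC -0.65, SE 0.15, edgeR adjusted p = 0.00854).

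**Figure D4:**
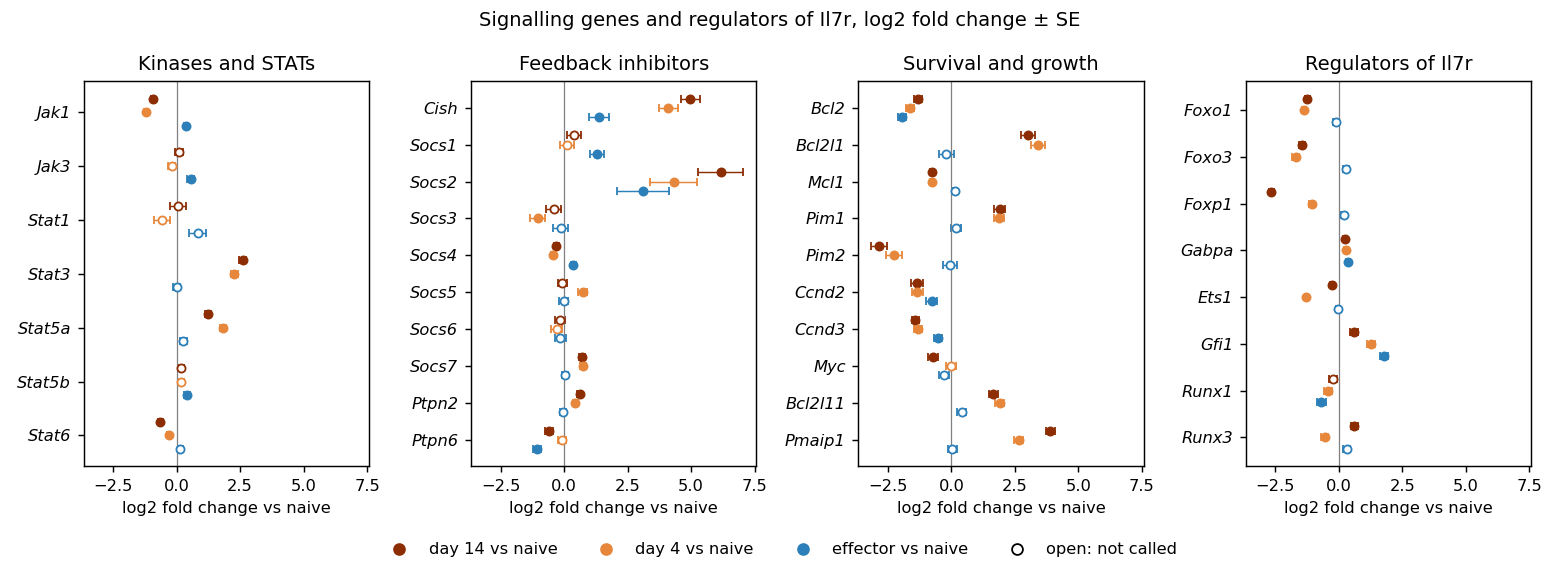
Log2 fold change against naive cells (x axis, bars are SE) of kinases and STAT factors, feedback inhibitors, survival and growth genes and regulators of Il7r, with 1 row per gene and a point each for day 14, day 4 and effector cells, open where not called by edgeR. Socs2 and Cish reach 6.17 and 4.97 at day 14, and Foxo1 lies below 0 at both tumour days and near 0 in effector cells. No naive library carried Socs2 past the filter on low counts, so its direction at both tumour days was fixed.

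Other cytokine receptors of T cells served as a comparison. Of 15 such genes 6 rose and 7 fell at day 14 against naive cells (62.1% of all genes called). In effector against naive cells 6 rose and 3 fell (24.9% of all genes called). In day 14 against day 4 cells 4 rose and 2 fell (12.1% of all genes called). Il10ra, a chain of the IL-10 receptor, rose at day 14 over naive cells (log2FC 4.18, SE 0.30, edgeR adjusted p = 9.19e-07), as did Il18rap of the IL-18 receptor (log2FC 3.84, SE 0.41, edgeR adjusted p = 3.80e-05). Il6ra, the IL-6 binding chain, fell at day 14 against naive cells (log2FC -7.11, SE 0.41, edgeR adjusted p = 2.04e-07), and Ifngr2 of the interferon gamma receptor did too (log2FC -3.76, SE 0.33, edgeR adjusted p = 3.14e-07).

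The genes most like each receptor gene in pattern were found as those with the smallest root-mean-square difference in log2 CPM over the 12 libraries, after centring each gene, among 8194 protein-coding genes. Nearest to Il7r were Selenop, Slc12a7 and Lef1, with differences of 0.35, 0.42 and 0.47 log2 units beside a range of 5.94 for Il7r. Lef1, a transcription factor of naive and memory cells, averaged 24.4 CPM in day 14 and 42.7 CPM in day 4 libraries. Its means were 354 CPM in effector libraries and 441 CPM in naive ones. Nearest to Il2rb were Pglyrp1, Hilpda and Il10ra (0.34, 0.36 and 0.39 log2 units, range 4.10 for Il2rb). Il10ra averaged 356 CPM in day 14 and 163 CPM in day 4 libraries. The means were 78.2 CPM in effector libraries and 19.7 CPM in naive ones. Il2ra lay nearest to the inhibitory receptor gene Lag3, then to Tnip3 and to the inhibitory receptor gene Ctla4 (0.67, 0.82 and 0.95 log2 units, range 8.10 for Il2ra). Il21r lay nearest to Cycs, Prim2 and Hspd1 (0.14, 0.15 and 0.16 log2 units, range 2.50), which serve mitochondrial respiration, DNA priming and mitochondrial protein folding. Il15ra lay nearest to Myo1f, Grina and Gng2 (0.25, 0.26 and 0.27 log2 units, range 2.02), and Il9r to Myo1e, Cemip2 and Gpm6b (0.64, 0.64 and 0.65 log2 units, range 7.13). Nearest to Il4ra were Ogfod1, Narf and Mtrf1l (0.18, 0.20 and 0.21 log2 units, range 1.59), and nearest to Il2rg were Stk16, Mat2b and Sec24c (0.09 log2 units each, range 0.86).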

How the data were processed

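The authors deposited counts of reads per gene, 1 table per library. Per the submitters' processing notes, fastp 0.19.6, STAR 2.6.1b and genome build GRCm38 were used. Neither the counting options nor the annotation release is given in the sources used here. Per the labels' protocols, RNA of sorted cells was taken on Dynabeads, amplified as cDNA and tagmented. The unstranded column was used because each stranded column held about the same number of reads (49.8% to 49.9% in the first), so antisense reads cannot be told apart. Reads outside genes (20.7% to 30.2%) and unmapped, multimapping and ambiguous reads stayed out of library sizes. Of 55401 identifiers, 55141 matched GENCODE M21, which gave symbols, coordinates and lengths.

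Genes were filtered with filterByExpr (16426 left), scaled with TMM and tested with edgeR 4.0.16 (R 4.3.3) in 1 robust quasi-likelihood fit of all 12 libraries (8 residual degrees of freedom), with Benjamini-Hochberg adjustment over all genes tested. Log2 CPM used a prior count of 2. Alternatives were DESeq2 1.42.0, limma 3.58.1 (voom), other scalings and filters, the 2 compared groups alone, a replicate block, summed stranded columns and leaving out each library. The scripts were tested on simulated counts. No 2 libraries of a group agreed within counting noise (chi-square per gene 10.3 or more). The 8 members and the gene lists were chosen with earlier results of these data known. Named genes were the members, up to 4 called genes with the largest log2 fold change per list in 3 contrasts and the 3 genes nearest in pattern to each member. Other list genes named beside a count of calls (such as Bcl2l11 and Mcl1) and markers named beside a receptor gene were chosen after their values were seen.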

Additional observations from a re-analysis of the deposited data

How the results depend on the processing

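Of 48 receptor gene values (8 genes in 6 contrasts) 36 were called, and 32 of these kept direction and call under all alternatives tried. The other 4 are given with their genes: Il15ra in day 14 against effector, Il2ra in day 4 against effector, Il9r in day 14 against day 4 and Il21r in effector against naive cells. Among the 36 are the rises of Il9r over naive and effector cells, whose direction was fixed by the filter. Over 1007 recomputed values, 23 lost and 4 gained a call. Another 16 changed sign, all of values near 0 that were not called, and the cause was not tested. Il15ra in day 4 against naive cells had log2 fold changes of 0.00404 with DESeq2 size factors, 0.00457 by DESeq2, and -0.210 to 0.126 without 1 library. Without 1 library Il4ra ranged from -0.237 to 0.0924 in day 4 against naive cells and from -0.282 to 0.0564 in day 14 against day 4 cells. Il9r in effector against naive cells was at -0.107 with total counts, -0.0137 with a stricter filter and -0.531 to 0.663 without 1 library, and it left the fit of those 2 groups alone. The number of genes called in day 14 against day 4 cells ranged from 1283 (without day 14 replicate 2) to 2206 without 1 library, against 1984 with all. With total counts as scaling, 38.2% of effector against naive calls were higher, against 58.4% with TMM. The replicate block left 7, 6, 5, 7, 8 and 3 receptor genes called in the 6 contrasts, as many as without it, and changed no receptor call. The labels do not say whether same-numbered libraries belong together, and they were not treated as pairs. Correlations of deviations exceeded 0.1 in 1 of 18 same-numbered pairs and in 0 of 36 others. With 3 libraries per group this cannot decide whether they were paired. By length of the longest transcript 6 of 8 genes kept their rank at day 4, where Il21r then stood above Il2rb. Without shared bases 6 kept it at day 14 and 6 in naive libraries. Depth limits Il9r, Il21 and Il2 in naive and effector cells.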
